A study of Mus musculus with 10 samples.

Results

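The genes that carry cholesterol through to progesterone, androgens and estradiol in the mouse ovary were examined: the cholesterol carrier Star, the enzymes Cyp11a1, Hsd3b1, Cyp17a1, Hsd17b1, Cyp19a1 and Srd5a1, and the electron donors Fdx1, Fdxr and Por. They were chosen by name, for their known place in steroid synthesis, and are 10 of the 55487 genes in the deposited table. All 10 passed the filter on low counts and were tested. Each library was made from a whole ovary of a C57BL/6J mouse. The Control group held 4 mice aged 8 weeks, and the Aged group held 3 mice labelled as 11 months old, while the study's methods give 10 months. The Aged+CF group held 3 mice of the same labelled age that had been given 200 μL of CEFFE at a protein concentration of 3 μg/μL through the tail vein every 2 days for 2 weeks. CEFFE is a cell-free liquid extract of fat tissue. Control and Aged mice were given saline. All mice in the 3 groups had been injected with 10 IU of PMSG, a gonadotropin with the action of FSH that makes follicles grow, 48 h before the ovaries were taken, so every value below is from a stimulated ovary. Age and CEFFE were thus the only labelled differences, and no mouse of 8 weeks was given CEFFE.

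In the ovary, steroids are made by cells that share the work. Star moves cholesterol to the inner mitochondrial membrane, Cyp11a1 cuts its side chain to give pregnenolone with electrons passed on by Fdxr and Fdx1, and Hsd3b1 turns pregnenolone into progesterone. Theca cells, which surround the follicle, carry on to androgens with Cyp17a1, which takes its electrons from Por, while granulosa cells of growing follicles turn androgens into estrogens with Cyp19a1 and Hsd17b1. After ovulation the follicle becomes a corpus luteum, whose luteal cells make progesterone.

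Each ovary gave between 15761789 and 21318254 counted reads, and 18956 genes were tested. Levels are given as FPKM, the deposited count scaled to the length of the gene and the total of the library, so that genes can be compared with each other, and changes are log2 fold changes of the counts fitted by edgeR with a standard error. An adjusted p is that of edgeR's quasi-likelihood test, adjusted by Benjamini-Hochberg over all genes tested, and a gene was called where it changed at least 1.5-fold with an adjusted p under 0.05. The p-values set the difference between groups against the spread between these ovaries, estimated from all groups together. A pair of ovaries stood apart in markers of the oviduct, the tube next to the ovary: the summed FPKM of 6 oviduct markers was 105 in Control 33 and 80.7 in Aged 34, against 0.360 to 8.09 in the other 8. Aged 34 was also highest in 6 plasma cell markers, at a summed FPKM of 2413 against 24.4 to 257 in the other 9 ovaries. Results that rest on these ovaries are given with and without them.

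The 10 genes together took 0.754% to 1.21% of the counts in Control, 1.52% to 2.88% in Aged and 1.39% to 1.90% in Aged+CF. Hsd3b1 was the most abundant per length in all 3 groups, followed by Cyp11a1. In Control, Hsd3b1 stood at 1213 ± 150 FPKM (SD, n = 4), and its lowest ovary was above the highest ovary of Cyp11a1, which stood at 642 ± 199 FPKM. Hsd17b1 came next in Control at 250.3 ± 46.0 FPKM and overlapped with Fdx1 at 187 ± 70.0 FPKM and with Star at 137 ± 67.8 FPKM. The low end held Por at 28.3 ± 2.92, Cyp19a1 at 21.5 ± 24.2 and Srd5a1 at 16.3 ± 3.34 FPKM. In Aged, the third place belonged to Star at 865 ± 540 FPKM (SD, n = 3), and Hsd17b1 stood at 141 ± 45.7 FPKM, below Fdx1 and Fdxr. In Aged+CF, Star also stood in the third place, at 433 ± 254 FPKM. The lowest genes there were Cyp17a1 at 7.79 ± 6.73 and Cyp19a1 at 3.56 ± 2.25 FPKM.

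**Figure D1:**
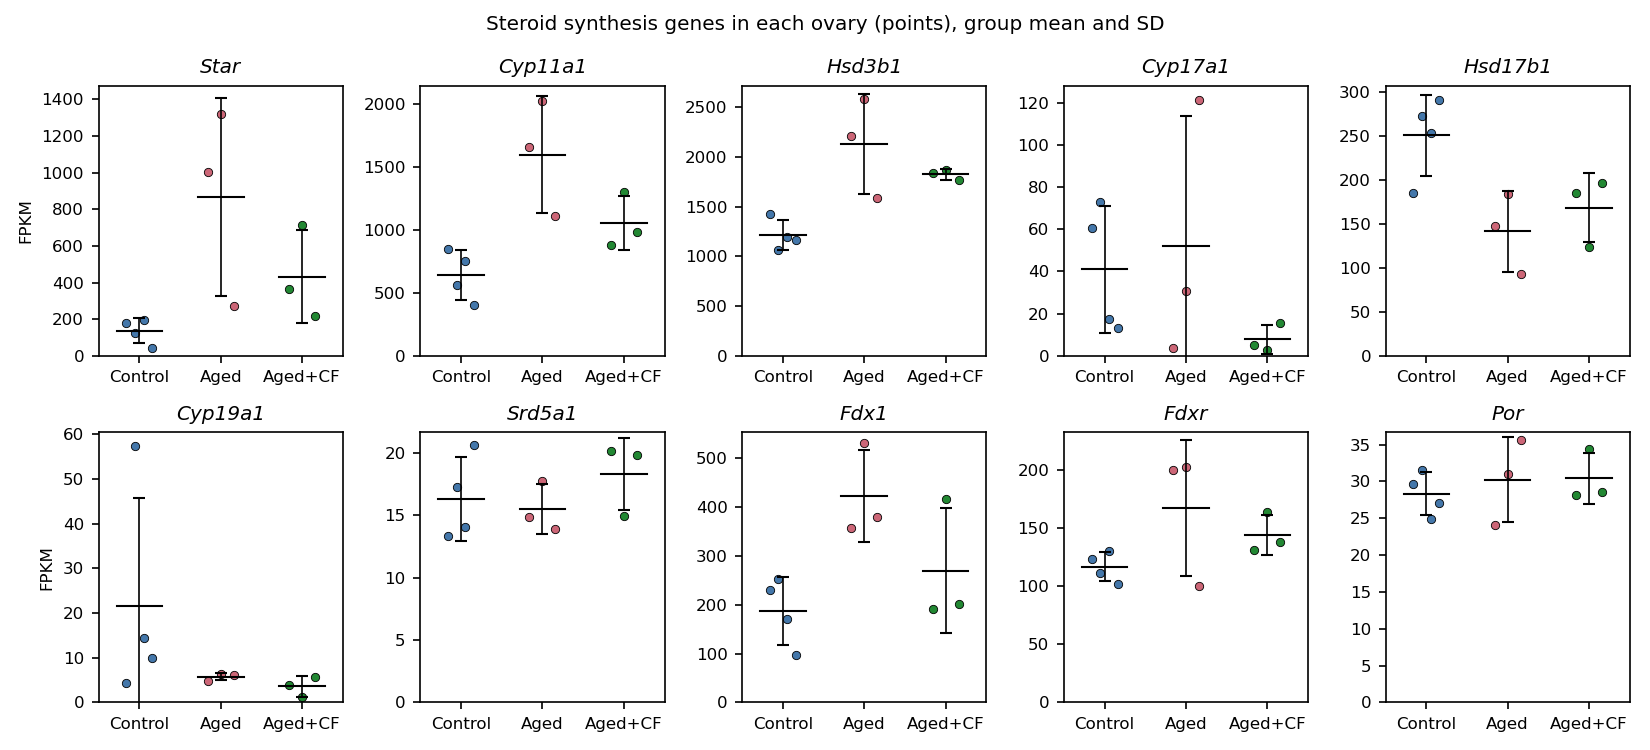
FPKM of the 10 genes (y axis, from 0) in each ovary of Control (4 points), Aged (3) and Aged+CF (3); horizontal lines are group means and error bars SDs, cut at 0. All Aged ovaries lie above all Control ovaries for Star, Cyp11a1, Hsd3b1 and Fdx1, while Cyp17a1 ranges from 3.94 to 121 FPKM within Aged.

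The comparison of Aged with Control asks how the steroid genes differ with age. The genes of the first steps, from cholesterol to progesterone, were higher in Aged, and those of the estrogen step were not. By the adjusted p, 4 of the 10 genes were called and all 4 were higher in Aged: Star, Cyp11a1, Hsd3b1 and Fdx1. Among all genes tested 11.1% were called. At unadjusted p, 6 of the 10 were called, with Fdxr higher and Hsd17b1 lower, against 18.2% of all genes tested. The values of the groups did not overlap for 4 of the 10 genes, against 27.5% of all genes tested. The median log2 fold change of the 10 genes was 0.55, against 0.00 over all genes tested. Since whole ovaries were sequenced, more cells of a type and more RNA per cell cannot be told apart for any of these changes.

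Star, the carrier whose supply of cholesterol starts steroid synthesis, is encoded at chr8:25806555-25815982 on the plus strand. It was found at 179, 128, 196 and 45.2 FPKM in Control 31, 32, 33 and 34. In Aged 31, 33 and 34 it stood at 1003, 1323 and 270.2 FPKM. The lowest Aged ovary, Aged 34, was still above every Control ovary, but the other Aged ovaries were far higher. The log2 fold change was 2.83 ± 0.65 (SE), a 7.12-fold rise with a 95% interval of 2.63 to 19.3, and edgeR's adjusted p was 0.0194.

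Cyp11a1 is the side-chain cleavage enzyme, which makes the first steroid of the pathway, and lies at chr9:58006411-58027023 on the plus strand. Its level was 849.5, 564, 751 and 402 FPKM in the Control ovaries. In Aged it was 1659, 2026 and 1109 FPKM, again with Aged 34 lowest and no overlap with Control. It rose by 1.47 ± 0.31 on the log2 scale, with an edgeR adjusted p of 0.0158. The exons of Cyp11a1 overlap those of a long noncoding gene on the same strand, Gm17322, so reads could have been shared between them.

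Hsd3b1 makes progesterone from pregnenolone and lies at chr3:98852194-98859794 on the minus strand. It stood at 1422, 1068, 1196 and 1164 FPKM in Control and at 2213, 2585 and 1586 FPKM in Aged. Every Aged ovary was higher than every Control ovary. The rise was 0.96 ± 0.21 on the log2 scale, with an edgeR adjusted p of 0.0170. Hsd3b1 has close paralogs to which reads could be misassigned. Hsd3b2, Hsd3b3, Hsd3b4 and Hsd3b5 did not exceed 0.103 FPKM in any ovary, and Hsd3b6 did not exceed 0.440 FPKM outside Aged 34, where it reached 6.77 FPKM.

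Fdx1 and Fdxr form the mitochondrial electron chain that feeds Cyp11a1, in which Fdxr takes electrons from NADPH and Fdx1 hands them to the enzyme. Fdx1 (chr9:51943306-51963556, minus strand) stood at 230.1, 253, 169.9 and 96.5 FPKM in Control. It stood at 357, 531 and 379 FPKM in Aged, all above Control. Its log2 fold change was 1.32 ± 0.38 and its edgeR adjusted p 0.0424. Fdxr (chr11:115268024-115277050, minus strand) stood at 123, 112, 130.2 and 102 FPKM in Control. The Aged ovaries split, with 199.9 and 202 FPKM in Aged 31 and 33 and 99.9 FPKM in Aged 34. In FPKM Aged 34 was below all Control ovaries. In counts relative to the scaled library it stood at 353, above Control 34 at 350. With all ovaries the log2 fold change of Fdxr was 0.67 ± 0.24 and was not called, with an edgeR adjusted p of 0.0898. Without Aged 34 it was 0.99 and called, with an edgeR adjusted p of 0.00274.

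Cyp17a1 is the enzyme of the androgen step, made by theca cells, and lies at chr19:46667165-46673172 on the minus strand. In Control it stood at 60.6 and 72.7 FPKM in ovaries 31 and 32 and at 17.5 and 13.2 FPKM in ovaries 33 and 34. The Aged ovaries spanned the whole Control range and more, with 3.94, 30.5 and 121 FPKM in Aged 31, 33 and 34. Its log2 fold change was 0.43 ± 0.98, with a 95% interval from -1.75 to 2.61 and an edgeR adjusted p of 0.810. Without Aged 34 the sign turned, to -0.99 with an edgeR adjusted p of 0.513. Of 6 theca markers other than Cyp17a1, Aldh1a1 was highest in Aged 34, at 754 FPKM against 255 to 420.3 FPKM in the other 9 ovaries. The sum of the other 5 was 38.7 FPKM in Aged 34, within the 28.3 to 68.4 FPKM of the other 9.

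Hsd17b1 (chr11:101078411-101080527, plus strand) reduces estrone to estradiol in granulosa cells. Its level was 185, 273, 253 and 290.2 FPKM in Control and 147, 184 and 93.3 FPKM in Aged. Control 31 and Aged 33 nearly met in FPKM, and in CPM, which are counts relative to the scaled library, they changed places at 239 and 284, so the groups overlapped. The log2 fold change was -0.67 ± 0.27, with a p of 0.0347 before and 0.125 after edgeR's adjustment. Without Aged 34 it was -0.38, with an edgeR adjusted p of 0.272. Cyp19a1, the aromatase that makes estrogens from androgens (chr9:54165937-54268110, minus strand), stood at 4.43, 57.4, 14.5 and 9.86 FPKM in Control. Control 32 thus stood far above the other Control ovaries. In Aged it was 4.83, 6.41 and 6.10 FPKM, which lies within the lower part of the Control range. The log2 fold change was -1.77 ± 0.81, with an edgeR adjusted p of 0.165, and without Control 32 it was -0.58.

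Srd5a1 reduces progesterone and testosterone to their dihydro forms. It ranged from 13.3 to 20.6 FPKM in Control and from 13.9 to 17.7 FPKM in Aged, with a log2 fold change of 0.07 ± 0.19 and a 95% interval of -0.35 to 0.49. Part of its exons overlap Gm17108 on the same strand. Por hands electrons to Cyp17a1, Cyp19a1 and the other cytochromes P450 of the endoplasmic reticulum. It ranged from 24.9 to 31.6 FPKM in Control and from 24.1 to 35.6 FPKM in Aged, with a log2 fold change of 0.23 ± 0.15 and a 95% interval of -0.11 to 0.56. Both genes were thus bounded to less than a 1.5-fold change by their intervals.

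**Figure D2:**
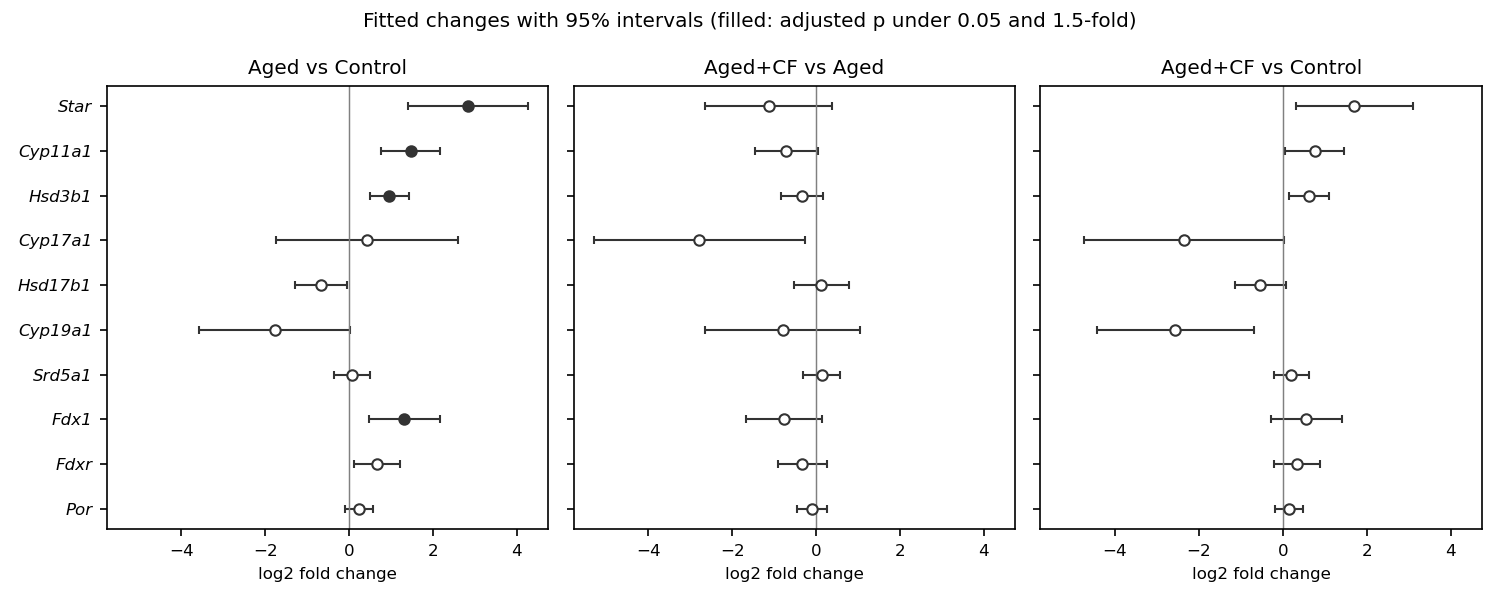
Log2 fold changes (x axis) of the 10 genes (y axis) in the comparisons of Aged with Control, of Aged+CF with Aged and of Aged+CF with Control, as fitted by edgeR on all 10 ovaries; bars are 95% intervals and filled points were called at adjusted p. The 4 filled points, Star, Cyp11a1, Hsd3b1 and Fdx1, are all in Aged vs Control, and the widest intervals are those of Cyp17a1 and Cyp19a1.

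The count of 4 depended on single ovaries. Without Control 32 none of the 10 genes was called, with edgeR adjusted p between 0.0529 and 0.0594 for these 4 genes and log2 fold changes of 2.81 for Star, 1.42 for Cyp11a1, 0.91 for Hsd3b1 and 1.51 for Fdx1. Without Control 34 or without Aged 33, 2 were called, and without Aged 34, 5. The calls over all genes moved as well, from 2096 with all ovaries to 1081 without Control 32 and 1090 without Control 34. They were 1784 without Aged 33 and 3112 without Aged 34, so these shifts are not particular to the 10 genes. The 4 genes were higher in Aged in each of these fits. Fdx1 was the least certain, and it was called without Aged 34 or Aged+CF 32 and lost without any of the other 8 ovaries, with an edgeR adjusted p of up to 0.119. Without both Control 33 and Aged 34, 4 genes were called, with Fdxr in place of Fdx1, and 2743 over all genes. Star then rose by 3.53 on the log2 scale (edgeR adjusted p = 0.00951).

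**Figure D3:**
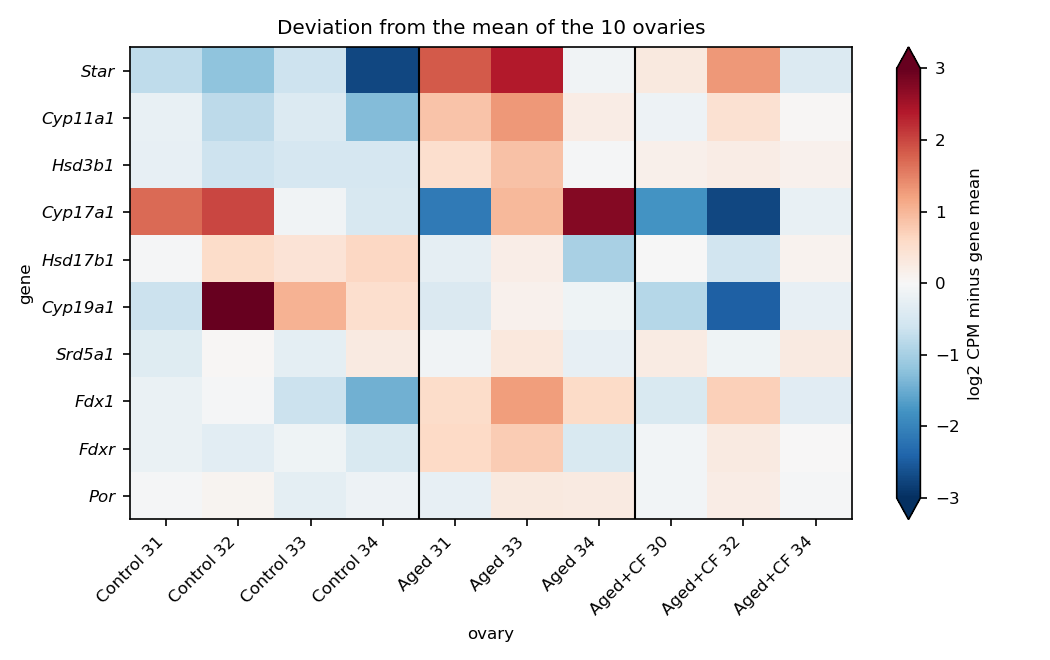
Deviation of each gene (rows) in each ovary (columns) from its mean over the 10 ovaries, in log2 CPM (colour, from -3 in blue to 3 in red); vertical lines separate Control, Aged and Aged+CF. Star, Cyp11a1 and Fdx1 are lowest in Control 34 and highest in Aged 33, while Cyp17a1 is highest in Aged 34 and Cyp19a1 in Control 32.

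The letters before the start sites were read for the 7 of the 10 genes with an entry in the promoter table of RefSeq on GRCm38.p6. Star, Cyp17a1 and Hsd17b1 had none. The 250 bases before each start were searched on both strands for AGGTCA, the core motif bound by nuclear receptors such as SF-1 (Nr5a1), for AAGGTCA, its longer form which contains it, for TATAAA and for TGACG, the core motif of cAMP response elements. Among the 32851 promoters of the table, AGGTCA was found in 14%, AAGGTCA in 4.08%, TATAAA in 12.4% and TGACG in 17.8%. Hsd3b1 and Fdx1 are shown because they rose and their RefSeq start lies within 46 bases of the gene's start in GENCODE. Cyp11a1 and Cyp19a1 are shown because they hold AGGTCA, the former at a start 8541 bases inside the gene as GENCODE draws it. Capitals mark AGGTCA, or TGACCT where it lies on the opposite strand. All 4 are 5′ to 3′ on the strand of the gene and end on the base before the start.
Hsd3b1, chr3:98859795-98860044, minus strand: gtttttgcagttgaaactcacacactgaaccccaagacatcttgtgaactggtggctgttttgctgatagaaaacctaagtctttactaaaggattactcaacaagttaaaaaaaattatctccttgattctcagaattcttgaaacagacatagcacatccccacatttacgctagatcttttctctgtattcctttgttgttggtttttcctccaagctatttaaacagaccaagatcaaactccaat
Fdx1, chr9:51963603-51963852, minus strand: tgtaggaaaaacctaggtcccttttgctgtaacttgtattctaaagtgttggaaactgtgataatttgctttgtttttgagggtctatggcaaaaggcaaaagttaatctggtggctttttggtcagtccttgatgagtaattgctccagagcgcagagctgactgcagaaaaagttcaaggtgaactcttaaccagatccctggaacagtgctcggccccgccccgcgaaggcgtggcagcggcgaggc
Cyp11a1, chr9:58014702-58014951, plus strand: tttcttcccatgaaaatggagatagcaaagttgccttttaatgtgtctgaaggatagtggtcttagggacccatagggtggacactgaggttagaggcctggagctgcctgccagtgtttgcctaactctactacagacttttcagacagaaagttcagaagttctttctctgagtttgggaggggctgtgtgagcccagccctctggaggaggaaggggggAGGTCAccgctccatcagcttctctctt
Cyp19a1, chr9:54268165-54268414, minus strand: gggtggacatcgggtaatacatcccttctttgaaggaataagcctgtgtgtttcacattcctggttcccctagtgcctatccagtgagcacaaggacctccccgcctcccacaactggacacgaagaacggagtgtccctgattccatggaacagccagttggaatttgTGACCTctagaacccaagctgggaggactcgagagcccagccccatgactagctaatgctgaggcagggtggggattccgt
None of the 4 motifs was found in the window of Hsd3b1 or in that of Fdx1. In Cyp11a1, AGGTCA lay 28 to 23 bases before the start. In Cyp19a1 it lay 81 to 76 bases before the start on the opposite strand. The other start of Cyp11a1 in the table, 8387 bases outside the gene as GENCODE draws it, held TGACG, and the 2 other starts of Cyp19a1 held TATAAA. Srd5a1, Fdxr and Por held none of the 4. These matches describe letters only.

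The comparison of Aged+CF with Aged asks how the steroid genes differ with CEFFE at the same age. The genes that were higher in Aged than in Control had lower means in Aged+CF than in Aged, but none of the 10 passed the test. By edgeR's adjusted p 0 of 10 were called, against 0.00528% of all genes tested, which is 1 gene. DESeq2 also called 0 of the 10, while over all genes it called 445, so the count over all genes depended on the method. At an unadjusted p under 0.05 with the same fold minimum, 1 of 10 was called, against 7.96% of all genes tested. The fold changes of 8 of the 10 genes were below 0, with a median of -0.52 on the log2 scale against -0.02 over all genes tested. The ranges of the 2 groups overlapped for all 10 genes, while 18.6% of all genes tested did not overlap. Because the Aged ovaries are the same as in the comparison with Control, a high or low Aged ovary moves both comparisons in opposite directions.

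For the 4 genes called in Aged vs Control, the Aged+CF ovaries lay between the other groups or within them. Star was found at 365, 714 and 220.3 FPKM in Aged+CF 30, 32 and 34. The highest of these was below Aged 31 and Aged 33 and the lowest below Aged 34. Its log2 fold change against Aged was -1.13 ± 0.68, with a 95% interval from -2.64 to 0.39 and an edgeR adjusted p of 0.432. Cyp11a1 stood at 884, 1298 and 983 FPKM, and its log2 fold change was -0.71 ± 0.34 (edgeR adjusted p = 0.327). Hsd3b1 varied little among the Aged+CF ovaries, at 1843, 1872 and 1764 FPKM, with a log2 fold change of -0.33 ± 0.23 (edgeR adjusted p = 0.487). Fdx1 stood at 190.3, 417 and 201 FPKM, and its log2 fold change was -0.76 ± 0.41 (edgeR adjusted p = 0.382). Aged+CF 32 was the highest of its group for all 4.

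Cyp17a1, the theca enzyme, had the largest log2 fold change of the 10 between Aged+CF and Aged. It was found at 5.29, 2.66 and 15.4 FPKM in Aged+CF 30, 32 and 34, all below Aged 33 and Aged 34 and overlapping with Aged 31. The log2 fold change was -2.79 ± 1.13, with a p of 0.0332 before and 0.269 after edgeR's adjustment. Without Aged 34 it was -1.35, with an unadjusted p of 0.210 in the edgeR fit. It also missed the unadjusted threshold in edgeR without Aged+CF 30 and without Aged+CF 32, with unadjusted p of 0.0943 and 0.0996. Of the 6 theca markers, 4 had a fold change above 0 in Aged+CF vs Aged and 2 below 0, with a median log2 fold change of 0.65 and 0 called by edgeR's adjusted p. Without Aldh1a1, which made up most of the summed level, their sum was 36.9 to 52.1 FPKM in Aged+CF and 28.3 to 38.7 FPKM in Aged. The part of theca cells in the values of Cyp17a1 was not tested.

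For the estrogen step, Hsd17b1 stood at 185, 123 and 196 FPKM in Aged+CF and Cyp19a1 at 3.79, 1.22 and 5.69 FPKM. Both overlapped with Aged. The log2 fold change of Hsd17b1 was 0.13 ± 0.29, with a 95% interval of -0.51 to 0.78, and it turned to -0.14 without Aged 34. That of Cyp19a1 was -0.80 ± 0.83, with a 95% interval of -2.65 to 1.06. The remaining members were Fdxr at 131, 164 and 138 FPKM, Srd5a1 at 20.1, 14.9 and 19.8 FPKM and Por at 28.2, 34.4 and 28.6 FPKM. Their log2 fold changes were -0.33 ± 0.26, 0.13 ± 0.20 and -0.09 ± 0.16, and the ranges of each overlapped with Aged.

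Left without Aged 34, the ovary highest in plasma cell markers and 1 of the pair high in oviduct markers, Aged+CF vs Aged still gave 0 genes called at adjusted p among the 10, and 3 at unadjusted p. These were Star (-1.58), Cyp11a1 (-0.96) and Fdxr (-0.63), with edgeR adjusted p of 0.151, 0.116 and 0.0525. Over all genes, 556 were then called at adjusted p in place of 1, and 2360 at unadjusted p in place of 1509.

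The comparison of Aged+CF with Control asks how far treated ovaries stood from young ones. Star, Cyp11a1 and Hsd3b1 had higher values in Aged+CF and Cyp19a1 lower ones, none of them past the adjusted threshold. By edgeR's adjusted p 0 of 10 were called, against 0.179% of all genes tested. DESeq2 called 1, Hsd3b1 (adjusted p = 0.0444), and 511 over all genes. At an unadjusted p under 0.05, 4 of 10 were called by edgeR, 3 higher and 1 lower, against 7.69% of all genes tested. All 3 Aged+CF ovaries lay above all 4 Control ovaries for Star, Cyp11a1, Hsd3b1 and Fdxr, 4 of 10 genes, while 21.9% of all genes tested did not overlap in either direction. The log2 fold changes were 1.70 ± 0.63 for Star, 0.76 ± 0.31 for Cyp11a1 and 0.63 ± 0.21 for Hsd3b1, with edgeR adjusted p of 0.271, 0.315 and 0.233. That of Cyp19a1 was -2.57 ± 0.84, with an unadjusted p of 0.0121 and an edgeR adjusted p of 0.223. Without Control 32, the ovary with the most Cyp19a1, it was -1.38. Without Control 32 the genes called at unadjusted p were Star, at 1.68 with an unadjusted p of 0.0481 in the edgeR fit, and Cyp19a1, with one of 0.0323. Without Aged+CF 32 they were Hsd3b1, at 0.60 with an unadjusted p of 0.0329 in the edgeR fit, and Cyp19a1, at -2.16 with one of 0.0441. Over all genes the calls at unadjusted p were 1457 with all ovaries, 1048 without Control 32 and 859 without Aged+CF 32. Fdx1 showed 0.56 ± 0.38, Fdxr 0.34 ± 0.24, Srd5a1 0.20 ± 0.19 and Por 0.14 ± 0.15, and below 0 were Cyp17a1 at -2.36 ± 1.07 and Hsd17b1 at -0.54 ± 0.27.

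Within a single ovary, the ratio of 2 genes does not depend on the scaling of the library, and 3 ratios of FPKM were compared between groups with two-sided exact permutation tests, 6 in all. The ratio of Star to Cyp11a1 compares the supply of cholesterol with its first enzyme. On the log2 scale it stood at -2.37 ± 0.54 in Control (SD, n = 4), at -1.13 ± 0.79 in Aged (SD, n = 3) and at -1.43 ± 0.66 in Aged+CF. Aged 31 and 33 and Aged+CF 30 and 32 were above every Control ovary, and Aged 34 and Aged+CF 34 were within the Control range. The difference of Aged from Control was 1.24, with an exact permutation p of 0.0571, or 0.343 after Benjamini-Hochberg adjustment over the 6 tests. The ratio of Cyp17a1 to Cyp11a1, the androgen step against the first step, stood at -4.28 ± 1.11 in Control, at -5.99 ± 2.76 in Aged and at -7.44 ± 1.47 in Aged+CF. Its exact permutation p was 0.286 for Aged vs Control and 0.5 for Aged+CF vs Aged. The ratio of Cyp19a1 to Cyp17a1, estrogen against androgen synthesis, was -1.20 ± 1.72, -2.09 ± 2.31 and -1.02 ± 0.49, with an exact permutation p of 0.629 and 0.5. The last ratio, Star to Cyp11a1 in Aged+CF vs Aged, also gave an exact permutation p of 0.5. After adjustment the other 5 were between 0.6 and 0.629 in these exact permutation tests. With 3 ovaries against 3 the smallest p that can be reached is 0.1, so Aged+CF vs Aged could not pass 0.05 for any ratio. Aged vs Control, with 4 ovaries against 3, could not pass 0.05 for any ratio after adjustment over the 6 tests.

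The spread among ovaries of a group was itself large for part of these genes. In the scaled counts the coefficient of variation was 114% for Cyp19a1 and 74.1% for Cyp17a1 in Control, 114% for Cyp17a1 and 66.9% for Star in Aged, and 87.1% for Cyp17a1 in Aged+CF. The smallest were 9.85% for Fdxr in Control and 3.21% for Hsd3b1 in Aged+CF. For Control, Aged and Aged+CF the medians over all genes tested were 13.3%, 22.7% and 12.9%, and 7, 7 and 8 of the 10 genes were above it.

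Markers of ovarian cell types were measured in the same libraries, in lists chosen with earlier results of these data known. By edgeR's adjusted p, 11.1% of all genes tested were called in Aged vs Control. The shares were 0.00528% in Aged+CF vs Aged and 0.179% in Aged+CF vs Control. All 8 luteal markers were tested and all 8 were called higher in Aged than in Control by edgeR's adjusted p, with a median log2 fold change of 1.76. Summed over the 8, their FPKM spanned 219.6 to 739 among Control ovaries, 956 to 3119 among Aged and 1050 to 3136 among Aged+CF ovaries, with none of the 8 at 0 in any ovary. Akr1c18 was the most abundant of the 8 on average, at up to 2185 FPKM in Aged+CF 32. Without it the sums were 181 to 522 FPKM in Control, 814 to 1607 in Aged and 612 to 951 in Aged+CF. In Aged+CF vs Aged 6 of the 8 had a fold change below 0, with a median log2 fold change of -0.53, and in Aged+CF vs Control 7 of the 8 had one above 0, with a median of 1.11, and in neither comparison was any of the 8 called by edgeR's adjusted p. The ovaries highest in these markers within Aged and Aged+CF, Aged 33 and Aged+CF 32, were also the highest in Star and Cyp11a1 there. Control 34 was the lowest of all 10 in the markers and in both genes. Within Control, ovary 31 was highest in the markers and in Cyp11a1, but Star was highest in Control 33, at 196 against 179 FPKM. Aged+CF 32 had the highest marker sum of all 10, but its Star of 714 FPKM was below the 1003 of Aged 31, whose marker sum was 1947. Of 8 granulosa markers other than Hsd17b1 and Cyp19a1, all 8 had a fold change below 0 in Aged vs Control and 1 was called, with sums of 2141 to 3340 FPKM in Control, 1355 to 1729 in Aged and 1126 to 1926 in Aged+CF. Of 6 theca markers 2 were called lower in Aged than in Control, with a median log2 fold change of -0.97. Of 12 oocyte markers 11 were called lower in Aged, with a median of -2.52 and summed FPKM of 185 to 259.5 in Control, 6.40 to 49.1 in Aged and 67.4 to 108 in Aged+CF. All 12 had a fold change above 0 in Aged+CF vs Aged, with a median of 1.31 and 0 called by edgeR's adjusted p. Of 6 macrophage markers 3 were called higher in Aged than in Control, with a median of 0.74. The part of these cell types in the changes of the 10 genes was not tested. Of 6 markers of the adrenal cortex, the other steroid-making gland, Cyp11b2 was at 0 in 9 of 10 ovaries and Cyp11b1, Cyp21a1 and Mc2r did not exceed 0.525 FPKM in any, while most of the summed level, 14.8 to 93.1 FPKM, came from Mrap. The 2 that were tested, Mrap and Akr1b7, both had a fold change above 0 in Aged vs Control. Mrap was called, at 1.73 ± 0.41 (edgeR adjusted p = 0.0225). Akr1b7, at no more than 1.01 FPKM, was not, at 1.25 ± 0.61 (edgeR adjusted p = 0.192).

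**Figure D4:**
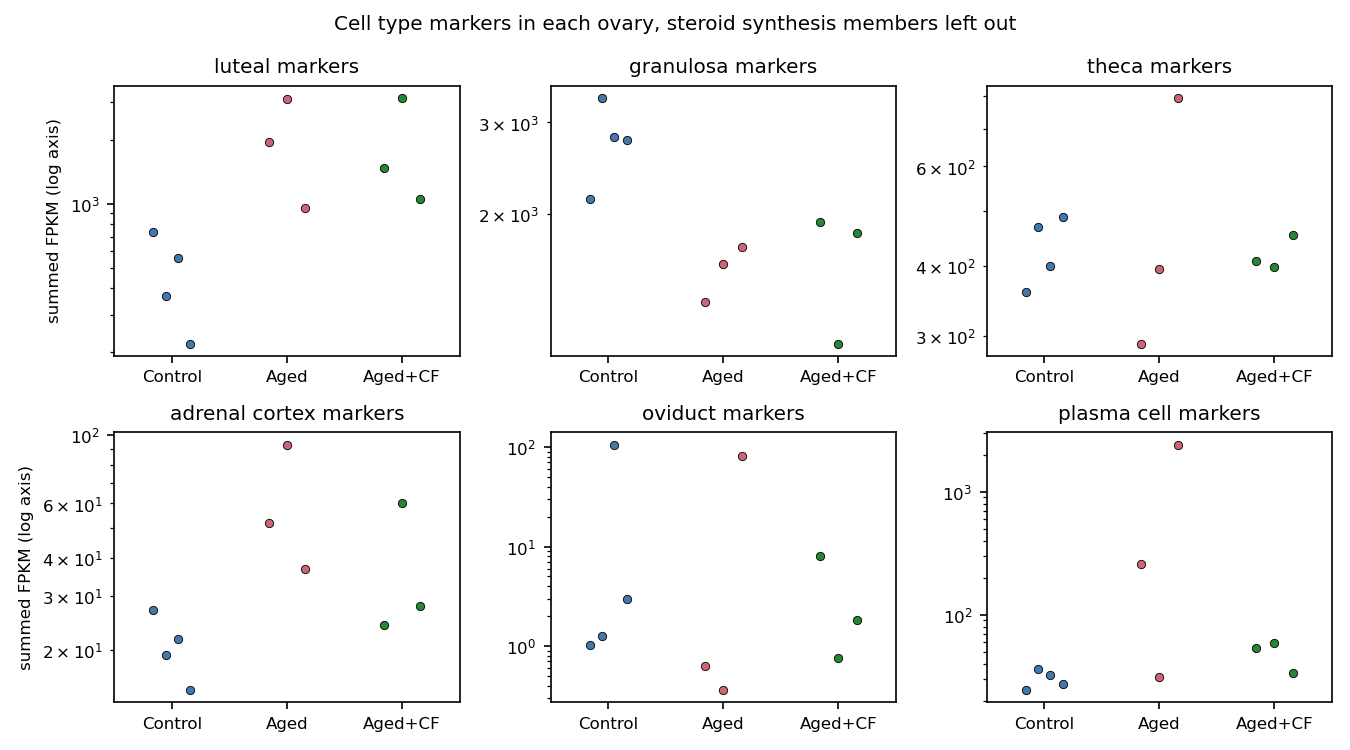
Summed FPKM of marker lists (y axis, log scale) in each ovary of Control, Aged and Aged+CF, with the 10 steroid genes left out of the lists. Luteal sums are 219.6 to 739 in Control and 956 or more in all aged ovaries, with and without CEFFE, and include Akr1c18 at 433 to 2185 FPKM in Aged+CF, where 6 of the 8 luteal markers had a fold change below 0 against Aged. Oviduct sums are highest in Control 33 and Aged 34.

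Of 45 further genes of the steroid pathway, 43 were in the table under these names and 33 were tested. In Aged vs Control 10 of the 33 were called higher by edgeR's adjusted p and 0 lower, against 11.1% of all genes tested called in either direction, with a median log2 fold change of 0.32. At unadjusted p these counts were 13 and 0, against 18.2% of all genes tested. DESeq2 called 12 at adjusted p, and 2828 over all genes. The 10 calls fell to 4 without Control 32 or without Control 34 and to 6 without Control 33 or without Aged 33. Over all genes the 2096 calls fell to 1081, 1090, 1559 and 1784 in these fits. Stard5, which carries cholesterol in the cytosol, rose from 4.46 to 5.53 FPKM in Control to 13.8 to 16.2 FPKM in Aged, by 1.75 ± 0.25 on the log2 scale (edgeR adjusted p = 0.00515). Its relative Stard4 rose by 1.74 ± 0.39, Tspo of the outer mitochondrial membrane by 0.94 ± 0.19 and the lysosomal cholesterol carrier Npc2 by 0.88 ± 0.24. Scarb1, the receptor that takes up cholesterol from HDL and also among the luteal markers, rose by 1.72 ± 0.46. Stard3, Npc1 and Scp2, cholesterol carriers named after their values were seen, were not called, with log2 fold changes of -0.07 ± 0.10, -0.02 ± 0.11 and 0.64 ± 0.20.

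Akr1c18, which inactivates progesterone and is also among the luteal markers, stood at 38.6 to 217 FPKM in Control, 143 to 1512 in Aged and 433 to 2185 in Aged+CF, and rose in Aged by 3.19 ± 0.88 on the log2 scale (edgeR adjusted p = 0.0377). Hsd11b1, which regenerates active glucocorticoid, rose by 2.05 ± 0.39 from levels of at most 0.254 FPKM in Control, and Cyb5b, an electron carrier of the outer mitochondrial membrane, by 0.68 ± 0.14. The last of the 10 called genes, Hsd3b6, was named after its values were seen, and its rise of 3.77 ± 1.06 rests on Aged 34, as given above. Hsd17b7, which takes part in cholesterol and estradiol synthesis, ranged from 28.2 to 888 FPKM within Aged and was not called (log2 fold change 2.54 ± 1.11, edgeR adjusted p = 0.148).

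Between Aged+CF and Aged, edgeR's adjusted p called 0 of these 33 genes. DESeq2 called 0 of them, and 445 over all genes. At edgeR's unadjusted p, 5 were lower and 0 higher, against 7.96% of all genes tested in either direction. The median log2 fold change was -0.22, beside -0.02 over all genes tested. Without Aged 34, 3 were called at adjusted p, and 556 over all genes. Hsd17b7 had the most negative value at -3.39 ± 1.27 (edgeR adjusted p = 0.245). In Aged+CF vs Control 1 was called, against 0.179% of all genes tested. It was Stard5, which stood at 10.5 to 24.1 FPKM in Aged+CF and was higher by 1.74 ± 0.25 (edgeR adjusted p = 0.0326). This call was lost without any of the 4 Control ovaries, without Aged 31 and without Aged+CF 30.

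Hormone receptors, transcription factors and other regulators of steroid synthesis were examined as 22 genes, all of which were tested. In Aged vs Control 2 were called higher and 3 lower by edgeR's adjusted p, against 11.1% of all genes tested, with a median log2 fold change of -0.08. Lhcgr is the receptor for LH found on theca, luteal and preovulatory granulosa cells, and is also among the luteal markers. It stood at 21.5, 40.1, 64.7 and 72.4 FPKM in Control in ascending order and at 144, 159 and 170 FPKM in Aged. The rise was 1.80 ± 0.36 (edgeR adjusted p = 0.0127). In Aged+CF it stood at 27.1, 44.3 and 48.8 FPKM, below all Aged ovaries, with a log2 fold change of -2.07 ± 0.40, an unadjusted p of 0.000400 and an edgeR adjusted p of 0.150. Nr0b2, a nuclear receptor without a DNA-binding domain that represses others, was higher in Aged by 1.15 ± 0.28 (edgeR adjusted p = 0.0235).

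The 3 that fell were Esr2, the estrogen receptor of granulosa cells, by 1.91 ± 0.29, the transcription factor Foxo1 by 1.21 ± 0.28 and Prkar2b, a regulatory subunit of protein kinase A, by 0.77 ± 0.20 on the log2 scale. Esr2 stood at 30.1 to 39.6 FPKM in Control, 5.39 to 12.1 in Aged and 13.4 to 25.9 in Aged+CF. The groups did not overlap, and the log2 fold change of Aged+CF against Aged was 1.17 ± 0.30, with an unadjusted p of 0.00299 and an edgeR adjusted p of 0.168. The most abundant regulators besides Lhcgr were Cebpb, at 101 to 194 FPKM over all ovaries, and Foxl2, at 76.3 to 138 FPKM, and neither was called. When Aged+CF was compared with Aged, 0 of 22 were called by edgeR's adjusted p and 5 at unadjusted p, against 7.96% of all genes tested. DESeq2 called 3, and 445 over all genes. Without Aged 34, edgeR called 2, and 556 over all genes. Against Control, the counts for Aged+CF were 0 and 2 at edgeR's adjusted and unadjusted p, against 0.179% and 7.69% of all genes tested. DESeq2 called 0 there, and 511 over all genes. Leaving out Control 34 or Aged 33 lowered the 5 calls of Aged vs Control to 2, and leaving out Control 31 or Control 32 lowered them to 3. Leaving out Aged 34 raised them to 8. Over all genes the 2096 calls became 1090, 1784, 1607 and 1081 without Control 34, Aged 33, Control 31 and Control 32, and 3112 without Aged 34.

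The genes whose levels followed those of 4 of the members most closely were sought among 16734 tested genes with a mean of at least 1 CPM. Likeness was measured over all 10 ovaries as the root mean square difference of log2 CPM after each gene was centred on its own mean, and the points share the libraries and groups. For Star, whose own spread was 1.45, the closest included the processed pseudogene Gm13502, Fdps of the cholesterol synthesis pathway, the lipase Lipg and the prostaglandin receptor Ptgfr, at 0.32 to 0.49. For Cyp11a1, with a spread of 0.72, they were Epdr1, the prolactin receptor Prlr, Efhd1, the histone gene H2bc4 and Radil, at 0.15 to 0.22. Ptgfr and Prlr are also in the list of luteal markers. Likeness was poorer for Cyp17a1, with a spread of 1.76, where Srsf12, Gadl1, Gm49937, Klhl31 and Gm23689 stood at 1.03 to 1.19. Some of these were near the floor. Gadl1 was at 0 in Aged 31 and Aged+CF 30, and Srsf12 did not exceed 0.806 FPKM in any ovary. Klhl31 was more abundant, at up to 9.45 FPKM in Aged 34. For Cyp19a1, with a spread of 1.35, 5330411J11Rik, Rasd1, Gm25287, the enzyme Cbs and Gdpd2 stood at 0.66 to 0.83.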

How the data were processed

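RNA of 10 ovaries was sequenced, with a library for each, and ovaries were assigned to Control (4), Aged (3) and Aged+CF (3) by their labels. Raw counts of reads per gene, not normalized, were deposited by the authors. The authors also deposited FPKM values, which divide each count by a gene length and by the library total. The submitters' processing notes name TopHat, Cufflinks 2.1.1 and GRCm38.p4. The counting tool, its settings on strand and multimapped reads and the annotation are not given in the sources used here. Reads of overlapping genes and paralogs can therefore be misassigned. Depth was 15761789 to 21318254 counts per ovary, and 0 sample columns were left unused.

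Counts were analysed with edgeR 4.0.16 in R 4.3.3. Genes were filtered by filterByExpr with the groups, scaled by TMM and tested with a quasi-likelihood fit to all 10 ovaries with a mean per group. The fold minimum of 1.5 and the threshold of 0.05 are those of the study, which does not name its test for the sequencing data, and both adjusted and unadjusted p were computed. Libraries of the same group differed by more than sampling noise in every pair (chi-square per degree of freedom of 15.7 to 106). Ratios were tested with exact permutation tests. The code was tested on simulated counts with known changes. Positions and overlaps come from GENCODE M21 on GRCm38, in which 55227 identifiers of the table were found, and promoter sequences from RefSeq.

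The 10 genes and all gene lists were chosen with earlier results of these data known. All 10 were named. Of 45 further pathway genes and 22 regulators, up to 8 per list were named by smallest adjusted p among those called in any comparison, with the 3 of the highest mean FPKM. The 5 genes most like Star, Cyp11a1, Cyp17a1 and Cyp19a1 were named by the smallest root mean square difference of centred log2 CPM (prior count 2). Some genes chosen by these rules are not reported here. Marker lists left out the 10 genes when a level was summed. Alternatives were DESeq2's size factors, no filter, DESeq2 1.42.0 with its Wald test, only the groups compared, the replicate number as a block and leaving out each ovary. Leaving out both ovaries highest in oviduct markers was added after the data were seen.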

Additional observations from a re-analysis of the deposited data

Results flagged for a closer look

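In Control, where 4 ovaries allow the check, 3 of the 41 sets of values examined had an ovary whose gap to its nearest neighbour was a large part of the whole range, and chance alone gives such a gap in about 1 in 20 sets. The log2 ratio of Cyp19a1 to Cyp17a1 was -3.77 in Control 31, against -0.34, -0.27 and -0.42 in Control 32, 33 and 34. Cyp17a1 was at 60.6 FPKM in Control 31 and at 72.7 FPKM in Control 32, while Cyp19a1 was at 4.43 and 57.4 FPKM, so that these ovaries were alike in the theca enzyme and not in aromatase. The summed FPKM of 6 oviduct markers was 105 in Control 33, against 1.02 to 2.97 in the other Control ovaries. Cebpb, a transcription factor induced by LH in follicle cells, stood apart in Control 32 at 286 CPM, against 160 to 176 CPM in the other Control ovaries.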

How the results depend on the processing

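The count of 4 members called in Aged vs Control was 3 to 5 with DESeq2's size factors, without the filter, with DESeq2 or with only those groups fitted, and it was 0 to 5 when an ovary was left out. Over all genes 2143, 1670, 2828 and 1440 were called with these settings, in the order given. All 4 members were called by DESeq2. With the replicate number as a block the count of members was 1, when 80 of the 18956 genes tested were called, against 2096 without the block. The numbers in the titles are shared by ovaries of different mice, and what they stand for is not given. Deviations of same-numbered ovaries from their group means correlated between -0.185 and 0.153. Ovaries of different numbers were not set beside them, so whether same-numbered ovaries share more than a number was not tested. The block also gave 2 further pathway genes and 0 regulators in Aged vs Control. For Aged+CF vs Aged it gave 0 members and 0 pathway genes at unadjusted p. For Aged+CF vs Control, where the block fit called 9 over all genes, it gave 1 member (Star, adjusted p = 0.0457), 0 pathway genes, and 10 of these at unadjusted p. Over all genes the block called 888 in Aged+CF vs Aged and 1311 in Aged+CF vs Control at unadjusted p. It turned the log2 fold change of Cyp17a1 in Aged vs Control to -0.23, and in Aged+CF vs Aged that of Srd5a1 to -0.00650 and that of Fdxr to 0.10. Only the groups compared in the fit gave 6 pathway genes for Aged vs Control, 2 for Aged+CF vs Aged at unadjusted p, and in Aged+CF vs Control 1 member, 4 pathway genes and 8 at unadjusted p. DESeq2 gave 8 regulators for Aged vs Control, 3 regulators and 2 members at unadjusted p for Aged+CF vs Aged, and 1 member and 4 pathway genes in Aged+CF vs Control. Over all genes DESeq2 called 2828, 445 and 511 in these comparisons at adjusted p. No filter gave 2 members at unadjusted p in Aged+CF vs Aged, and 2208 of the 36618 genes tested. Without Control 33 and Aged 34 that comparison gave 3 members and 8 pathway genes at unadjusted p, and 2313 of the 19104 genes tested. In the same fit Cyp17a1 turned to -1.24 in Aged vs Control and Hsd17b1 to -0.14 in Aged+CF vs Aged.

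Leaving out each ovary in turn gave, for Aged vs Control, 4 to 7 members at unadjusted p, 4 to 13 pathway genes (9 to 15 at unadjusted p) and 2 to 8 regulators (7 to 11). For Aged+CF vs Aged the ranges were 0 members throughout (0 to 3), 0 to 3 pathway genes (0 to 9) and 0 to 2 regulators (3 to 7), and for Aged+CF vs Control 0 members throughout (2 to 5), 0 to 2 pathway genes (3 to 7) and 0 regulators throughout (1 to 4). In the same order of comparisons, calls over all genes at adjusted p ranged from 1081 to 3112, from 1 to 556 and from 7 to 348. At unadjusted p the calls over all genes ranged from 3041 to 4282, from 1170 to 2360 and from 859 to 2000. The log2 fold change of Cyp17a1 in Aged vs Control ranged from -0.99 without Aged 34 to 0.9998 without Aged 31, that of Srd5a1 from -0.0783 to 0.22, with -0.02 without Control 31 and -0.00451 without Control 33, that of Hsd17b1 in Aged+CF vs Aged from -0.14 to 0.44, with -0.0114 without Aged+CF 34, and that of Por from -0.25 to 0.00300. The log2 ratio of Cyp19a1 to Cyp17a1 of Aged vs Control ranged from -2.08 to 0.22 and that of Aged+CF vs Aged from -0.0379 to 2.27. For Cyp17a1 to Cyp11a1 the ranges were -3.10 to -0.34 and -2.82 to -0.05, and for Star to Cyp11a1 0.98 to 1.70 and -0.76 to 0.0575. The cause of these shifts was not tested.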
